A study of Mus musculus with 2 samples.

Results

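Egr1, Egr2, Egr3, Nr4a1, Npas4, Ier2, Dusp1, Klf4 and Klf6 are early response genes, and their rows were read by symbol from single-cell RNA-seq count matrices of mouse pancreatic islets, 9 genes of the 32285 listed. The islets came from NOD mice, an inbred strain in which immune cells infiltrate the islets and autoimmune diabetes develops. The mice were 5 weeks old at the start and ate 1 of 2 diets for 5 weeks, and the number of mice per library is not given in the labels. HAMSAB stands for an acetylated and butyrylated maize starch of high amylose content and HAMS for the unmodified starch, so both groups ate the starch. Each diet has 1 droplet 3' library: 4628 HAMSAB cells with a median of 705 unique molecular identifiers (UMIs, each standing for 1 captured RNA molecule) and 4185 HAMS cells with a median of 704 were kept. With 1 library per diet there is no replicate check and no test, and the 95% intervals reflect counting error alone.

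In the GRCm38 build with the GENCODE M21 annotation, Egr1 (ENSMUSG00000038418) lies on the plus strand of chromosome 18 from 34859823 to 34864984, and Egr2 (ENSMUSG00000037868) on the plus strand of chromosome 10 from 67535475 to 67542188. Egr3 (ENSMUSG00000033730) spans 70077203 to 70082614 of chromosome 14, plus strand. Ier2 (ENSMUSG00000053560) spans 84661331 to 84662852 of chromosome 8, minus strand. Of the 9 genes, Dusp1 (ENSMUSG00000024190, chromosome 17, 26505590 to 26562128, minus strand) is the one whose annotated span overlaps other genes, among them Ergic1 on the opposite strand. Whether the counting used strand is not stated, so reads shared with those genes cannot be told apart from Dusp1 reads.

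Early response genes are transcribed within minutes of a stimulus from factors already in the cell, and their RNAs are short-lived. In beta cells, the insulin-producing cells of the islet, glucose raises calcium and cAMP, which act through CREB, a factor that binds the cAMP response element, and through SRF, which binds the CArG box. The products are mostly transcription factors (Egr, Nr4a, Npas4 and Klf proteins) that carry the stimulus to later genes, while Dusp1 is a phosphatase that switches off the MAP kinases that induce many of them. Tissue handling also induces such genes in many cell types, and here handling and diet cannot be told apart, because each diet is 1 preparation.

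Promoters are shown for 5 of the 7 genes whose interval between the diets left out 0 in beta-like cells, those with a matched window, because they differ in cAMP response elements. RefSeq windows of 250 bases before the transcription start (build GRCm38.p6) were matched for 6 of the 9 genes. Capitals mark the full element TGACGTCA or its short core TGACG on either strand, where the opposite strand reads CGTCA. Bases in GENCODE exons of the 9 genes or in annotated untranslated regions of any gene are left out. Introns are not: the Nr4a1 and Dusp1 stretches lie inside the annotated spans of their genes. For Npas4, whose whole window lies in an annotated 5' exon, only 30 bases are given. The stretches are chr19:4990128-4990157 for Npas4 (minus strand), chr17:26508520-26508722 for Dusp1 (minus strand), chr15:101266596-101266845 for Nr4a1 (plus strand), chr4:55532476-55532725 for Klf4 (minus strand) and chr13:5861239-5861481 for Klf6 (plus strand), each written 5' to 3' along its gene.
Npas4: cgttcgaCGTCAcgggaTGACGtcggaagt
Dusp1: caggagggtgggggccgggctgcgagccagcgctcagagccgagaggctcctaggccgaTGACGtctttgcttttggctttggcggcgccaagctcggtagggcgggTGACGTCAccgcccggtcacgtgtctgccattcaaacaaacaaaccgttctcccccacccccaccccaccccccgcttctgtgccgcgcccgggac
Nr4a1: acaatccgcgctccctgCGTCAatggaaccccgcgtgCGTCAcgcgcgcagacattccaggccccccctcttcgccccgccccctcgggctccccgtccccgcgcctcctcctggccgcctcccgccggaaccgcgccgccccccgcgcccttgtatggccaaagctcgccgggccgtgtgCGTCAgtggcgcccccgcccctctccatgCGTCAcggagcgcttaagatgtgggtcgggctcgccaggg
Klf4: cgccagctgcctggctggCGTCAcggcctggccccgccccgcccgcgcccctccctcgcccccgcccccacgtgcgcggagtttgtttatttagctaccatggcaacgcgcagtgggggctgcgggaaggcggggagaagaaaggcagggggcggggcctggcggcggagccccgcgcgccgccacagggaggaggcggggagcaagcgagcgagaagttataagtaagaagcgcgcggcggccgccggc
Klf6: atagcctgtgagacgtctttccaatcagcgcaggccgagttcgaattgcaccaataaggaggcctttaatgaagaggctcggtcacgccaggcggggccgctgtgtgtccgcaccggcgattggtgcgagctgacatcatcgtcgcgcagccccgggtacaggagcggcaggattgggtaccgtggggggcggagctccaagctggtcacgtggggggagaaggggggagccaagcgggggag

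Dusp1 held 1 full element, from base -143 to base -136 before the start, and a further core from -191 to -187. The full element is in 1.55% of all 32851 windows of this length and the core in 17.8%. Npas4 held 2 cores, on opposite strands, from -179 to -175 and from -169 to -165. Nr4a1 held 4 cores, Klf4 held 1 and Klf6 held 0. The Egr binding motif GCGGGGGCG, found in 2.57% of windows, was matched once each in the Nr4a1 and Klf4 windows, and no CArG box (1.47% of windows) was matched in these 5. A match is a description of letters, and says nothing about binding in these cells.

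In beta-like cells, Npas4, Egr3, Nr4a1 and Dusp1 were lower in HAMSAB than in HAMS, Klf6 and Klf4 were higher, and Egr1 was level. The beta-like class held 734 HAMSAB cells (736953 UMIs, median 811.5 per cell) and 1360 HAMS cells (1097883 UMIs, median 673), and all 10 beta cell markers were detected in both. Levels are given in CPM, the UMIs of a gene per 1000000 UMIs of the class, which is relative to all RNA captured from these cells and does not separate fewer expressing cells from less RNA per cell. Ratios are log2 of HAMSAB over HAMS. Of the 8 genes with at least 50 UMIs, 0 were at least 2-fold higher and 1, Npas4, was at least 2-fold lower, against 1.37% and 1.86% of the 4679 genes measured with that minimum. Their median log2 ratio was -0.55, against 0.02 over all genes measured. Of their intervals 5 lay below 0 and 2 above it, and the share of such intervals over all genes was not computed.

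Npas4, a basic helix-loop-helix factor known in neurons and beta cells to follow calcium entry, gave 15 UMIs (20.4 CPM) in HAMSAB beta-like cells against 82 UMIs (74.7 CPM) in HAMS beta-like cells. Its level was 3.67-fold lower in HAMSAB, a log2 ratio of -1.88 (-2.78 to -1.07). A UMI was found in 1.91% of HAMSAB and 5.44% of HAMS beta-like cells, and no beta-like cell of either library held more than 3. In cells thinned to 500 UMIs, which left out 142 HAMSAB and 404 HAMS cells, the shares were 1.01% and 3.03%. T-like cells had no Npas4 UMI in 705 HAMSAB cells (median 784 UMIs) or 313 HAMS cells (median 961 UMIs), which allows shares of up to 0.426% and 0.958%. The beta cell markers summed to 4821 CPM in HAMSAB and 3132 CPM in HAMS T-like cells (9 of 10 detected in each), against 148940 and 126700 CPM in beta-like cells. Npas4 carried over in that proportion would give under 1 UMI in the T-like cells of either library, so these zeros do not measure free Npas4 RNA.

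Nr4a1, an orphan nuclear receptor, gave 118 UMIs (160 CPM) in HAMSAB beta-like cells against 296 UMIs (270 CPM) in HAMS ones, a log2 ratio of -0.75 (-1.07 to -0.44). It was found in 13.8% of HAMSAB and 17.5% of HAMS cells. The Nr4a1 ratio was -0.40 in cells thinned to 500 UMIs, outside its interval. Egr3, a zinc finger factor of the Egr family, gave 65 UMIs (88.2 CPM) against 184 UMIs (168 CPM), a log2 ratio of -0.93 (-1.36 to -0.51), with 4.90% of HAMSAB and 8.09% of HAMS cells positive. Both genes were lower in RNA per class and in the share of positive cells. Egr2, of the same family, was close to its detection limit, with 5 UMIs in HAMSAB and 2 in HAMS.

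Dusp1, the MAP kinase phosphatase, gave 445 UMIs (604 CPM) in HAMSAB beta-like cells against 1138 UMIs (1037 CPM) in HAMS ones, a log2 ratio of -0.78 (-0.94 to -0.62). The share of positive cells differed less than the level, at 30.7% of HAMSAB and 33.5% of HAMS cells. These shares depend on depth, and the HAMSAB cells were deeper. In cells thinned as for Npas4 the Dusp1 shares were further apart, at 21.3% in HAMSAB and 27.5% in HAMS. Cells with at least 5 Dusp1 UMIs made up 2.04% of HAMSAB and 4.12% of HAMS cells, and a positive cell held 1.98 Dusp1 UMIs on average in HAMSAB and 2.50 in HAMS. In the authors' deposited table for beta cells Dusp1 is listed with a log2 fold change of -0.93, 25.2% of HAMSAB and 31.4% of HAMS cells and an adjusted p-value of 0.288. The test behind that p-value is not given in the sources used here, and with 1 library per diet it is no test across mice. Of the 9 genes, Dusp1 alone was found in the rows of that table that name HAMSAB. None was found in such rows of the deposited tables for delta cells, B cells, T cells, macrophages and plasmacytoid dendritic cells.

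Klf6, a Krüppel-like zinc finger factor, gave 399 UMIs (541 CPM) in HAMSAB beta-like cells against 332 UMIs (302 CPM) in HAMS ones, a log2 ratio of 0.84 (0.63 to 1.05). It was found in 29.6% of HAMSAB and 17.6% of HAMS cells, and in 19.6% and 13.3% of cells thinned to 500 UMIs. Klf4, its relative, gave 378 UMIs (513 CPM) against 421 UMIs (383 CPM), a log2 ratio of 0.42 (0.22 to 0.62). Cells with at least 5 UMIs were 1.50% of HAMSAB against 0.29% of HAMS cells for Klf6 and 1.23% against 0.37% for Klf4. These were the 2 genes of the 9 whose interval lay above 0 in beta-like cells.

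Egr1, a zinc finger factor of the Egr family, gave 1307 UMIs (1774 CPM) in HAMSAB beta-like cells and 1863 UMIs (1697 CPM) in HAMS ones, a log2 ratio of 0.06 (-0.04 to 0.17). It was found in 58.0% of HAMSAB and 48.5% of HAMS cells. Ier2, a nuclear protein of the early response, gave 108 UMIs (147 CPM) against 205 UMIs (187 CPM), a log2 ratio of -0.35 (-0.70 to -0.01). The Ier2 shares of cells were 11.6% in HAMSAB and 11.8% in HAMS, and 6.42% and 7.85% in cells thinned to 500 UMIs. The Ier2 ratio changed sign, to 0.09 in cells thinned to 500 UMIs and 0.01 in cells with at least 500 genes, and was -0.94 (-1.74 to -0.22) in cluster 4 of the 2 clusters described next.

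**Figure D1:**
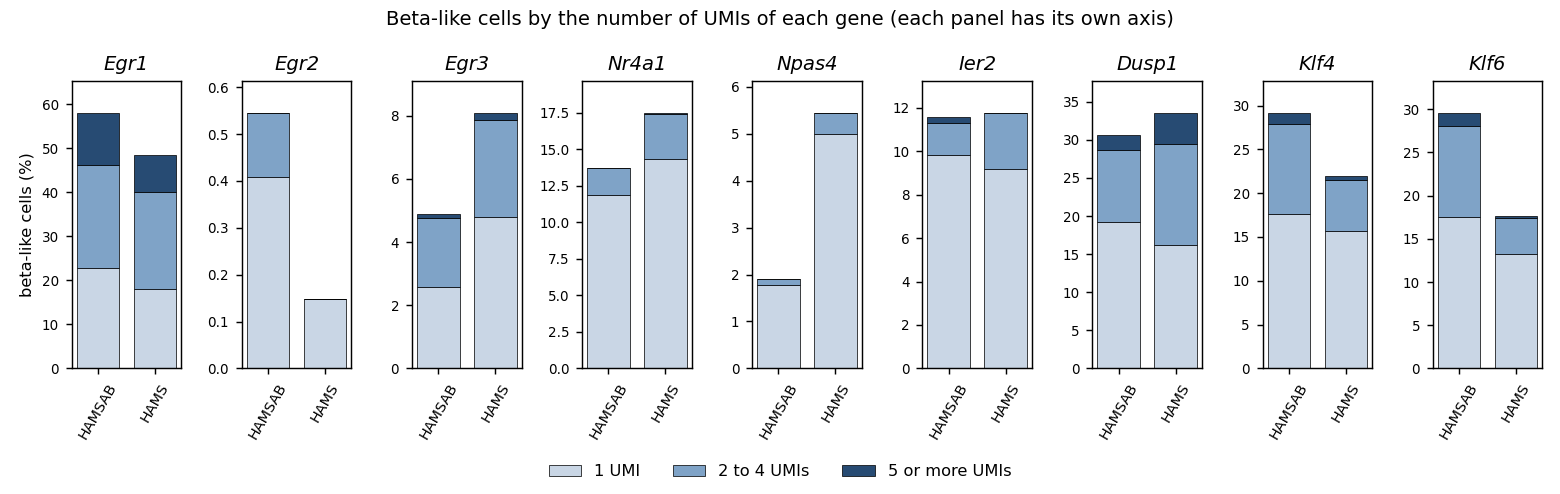
Percent of beta-like cells with 1, 2 to 4, or 5 or more UMIs of each gene, HAMSAB at the left and HAMS at the right of each panel; each panel has its own axis from 0. Npas4, Egr3 and Nr4a1 bars are shorter in HAMSAB, Klf4 and Klf6 bars are taller, and for Dusp1 the segment of 1 UMI is taller in HAMSAB (19.2% against 16.25% in HAMS) while those of 2 to 4 UMIs (9.40% against 13.2%) and of 5 or more (2.04% against 4.12%) are shorter.

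The beta-like class joined 2 clusters, cluster 4 (313 HAMSAB and 762 HAMS cells) and cluster 9 (421 HAMSAB and 598 HAMS cells). Their median depth over both libraries was 570 and 930 UMIs, and cluster 4 was led by Ins1 and Ins2. Cluster 9 was led by F830016B08Rik, Prlr and Mafa, with Gm4841, G6pc2 and Slc2a2 also among its leading genes. The Dusp1 difference lay in cluster 9, with 681 CPM in HAMSAB against 1622 CPM in HAMS, a log2 ratio of -1.25 (-1.43 to -1.07). In cluster 4 it had 415 CPM in HAMSAB and 470 CPM in HAMS, a log2 ratio of -0.18 (-0.54 to 0.17). Npas4 was lower in both clusters, with 14 UMIs in HAMSAB against 58 in HAMS in cluster 9 (-2.00, -2.96 to -1.14) and 1 against 24 in cluster 4 (-3.21, -8.57 to -0.59). A finer clustering (Leiden resolution 2) set apart a beta-like cluster led by Rasd1 and Npas4, with 73 HAMSAB and 335 HAMS cells. The part of this uneven split in the Npas4 ratios was not tested.

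Egr3 was lower in both clusters as well (-1.03 in cluster 9 and -0.74 in cluster 4). Klf6 was higher in both, with a ratio of 1.25 (0.87 to 1.64) in cluster 4 and 0.50 (0.24 to 0.76) in cluster 9. Nr4a1 was lower in cluster 9 (-0.98, -1.37 to -0.60), while its interval in cluster 4 held 0 (-0.53, -1.14 to 0.04). Klf4 was higher in cluster 4 (0.49, 0.11 to 0.86), while its interval in cluster 9 held 0 (0.24, -0.01 to 0.49). Egr1 was level in cluster 4 (0.05, -0.18 to 0.29) and lower in cluster 9, at 2106 CPM in HAMSAB against 2490 CPM in HAMS (-0.24, -0.36 to -0.13). Egr1 was higher in cluster 9 than in cluster 4 in both libraries (cluster 4 had 965 CPM in HAMSAB and 929 CPM in HAMS), and cluster 9 was the larger of the pair in HAMSAB and the smaller in HAMS. Egr1, Egr3, Npas4, Dusp1 and Klf4 were among the variable genes that built the clusters, so the split between them is partly made of these genes.

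Markers of the other endocrine cells were also lower in HAMSAB beta-like cells. The alpha markers summed to 1779 CPM in HAMSAB, with 5 of 8 detected, against 3152 CPM in HAMS with 8 of 8 detected. The delta markers summed to 756 CPM in HAMSAB, with 5 of 6 detected and Ghsr at 0, against 2877 CPM in HAMS, with 4 of 6 detected and Ghsr and Ptprz1 at 0. The median mitochondrial share was 0.864% in HAMSAB and 1.09% in HAMS beta-like cells. The part of these differences, and of the deeper HAMSAB cells, in the early gene ratios was not tested.

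In beta-like cells of the HAMS library, the 74 cells with an Npas4 UMI held 2868 CPM of Egr1, against 1615 CPM in the 1286 cells without one, and 1601 CPM of Dusp1 against 997 CPM. Cells with a UMI were deeper (median 862 against 667.5 UMIs). In HAMSAB only 14 beta-like cells had an Npas4 UMI, with 2070 CPM of Egr1 against 1768 CPM in the other 720 cells. Egr1 and Dusp1 were found together in both libraries: the 225 HAMSAB cells with Dusp1 held 2311 CPM of Egr1 against 1424 CPM in those without, and the 456 HAMS cells with Dusp1 held 2858 CPM against 999 CPM. Klf6 and Dusp1 were found together in HAMSAB, where cells with Klf6 held 815 CPM of Dusp1 against 472 CPM in those without. In HAMS the same values were 1102 CPM and 1019 CPM. Cells with Dusp1 were deeper than those without (median 1125 against 716 UMIs in HAMSAB and 798.5 against 620.5 in HAMS). So were cells with Klf6 (1092 against 720 UMIs in HAMSAB and 852 against 638.5 in HAMS). The deeper of the joined beta-like clusters also held more Egr1 and more Dusp1 in both libraries. The part of depth and of the cluster mixture in these pairings was not tested.

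In alpha-like cells, the glucagon cells (311 HAMSAB and 544 HAMS), 0 of the 7 genes measured were 2-fold higher and 0 were 2-fold lower, against 0.721% and 2.83% of the genes measured in the class. Klf6 was higher, with 159 UMIs (688 CPM) in HAMSAB against 167 UMIs (408 CPM) in HAMS, a log2 ratio of 0.75 (0.43 to 1.08). The authors' deposited table for alpha cells lists Klf6 with a log2 fold change of 0.51, 29.1% of HAMSAB and 17.9% of HAMS cells and an adjusted p-value of 1. Egr1 was lower, at 1708 CPM in HAMSAB against 2245 CPM in HAMS (-0.39, -0.57 to -0.22), and Dusp1 at 389 CPM against 542 CPM (-0.48, -0.85 to -0.12). Npas4 gave 3 UMIs in HAMSAB and 20 in HAMS (-1.91, -4.31 to -0.16). Egr2 gave 0 UMIs in HAMSAB, which allows up to 0.965% of the cells, and 11 in HAMS (1.84% of the cells). Beta markers in this class summed to 1699 CPM in HAMSAB, with 9 of 10 detected and Ucn3 at 0, against 8119 CPM with 10 of 10 in HAMS. Ppy and Pyy, genes of gamma cells, were among the leading genes of the cluster, and the 4 gamma markers, all detected, summed to 13292 CPM in HAMSAB and 12978 CPM in HAMS, so the class held gamma cells or their RNA. At the finer clustering a gamma cluster of 56 HAMSAB and 126 HAMS cells was separate, and Npas4 then gave no ratio in alpha-like cells. The part of these markers in the ratios was not tested.

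Delta-like cells, which make somatostatin (334 HAMSAB and 454 HAMS), had 0 of 6 genes 2-fold higher and 1, Nr4a1, 2-fold lower, against 1.12% and 1.06% of the genes measured in the class. Nr4a1 gave 13 UMIs (53.7 CPM) in HAMSAB against 62 UMIs (173 CPM) in HAMS, a log2 ratio of -1.69 (-2.67 to -0.81), and in cells with at least 500 genes it was -0.74. Its share of positive cells was 3.59% in HAMSAB and 10.6% in HAMS. Klf6 was higher, at 578 CPM in HAMSAB against 320 CPM in HAMS (0.85, 0.49 to 1.22), and Dusp1 lower, at 413 CPM against 565 CPM (-0.45, -0.81 to -0.10). Egr1 had 2329 CPM in HAMSAB and 2100 CPM in HAMS (0.15, -0.01 to 0.31). Npas4 gave 0 UMIs in HAMSAB and 5 in HAMS. Alpha markers in this class summed to 3874 CPM in HAMSAB and 9825 CPM in HAMS, with 6 of 8 detected in each. Beta markers summed to 7850 CPM in HAMSAB, with 9 of 10 detected and Ucn3 at 0, and 10192 CPM in HAMS, with 10 of 10 detected. Their part in the Nr4a1 ratio was not tested. Klf6 above 0 and Dusp1 below 0 were thus seen in all 3 endocrine classes. Klf6 above 0 was not particular to them. Its interval also lay above 0 in B-like (1.10), macrophage-like (0.30), endothelial-like and plasma-like cells. The Klf6 interval held 0 in ductal-like, cDC-like and T-like cells and in cluster 2, where it was level.

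**Figure D2:**
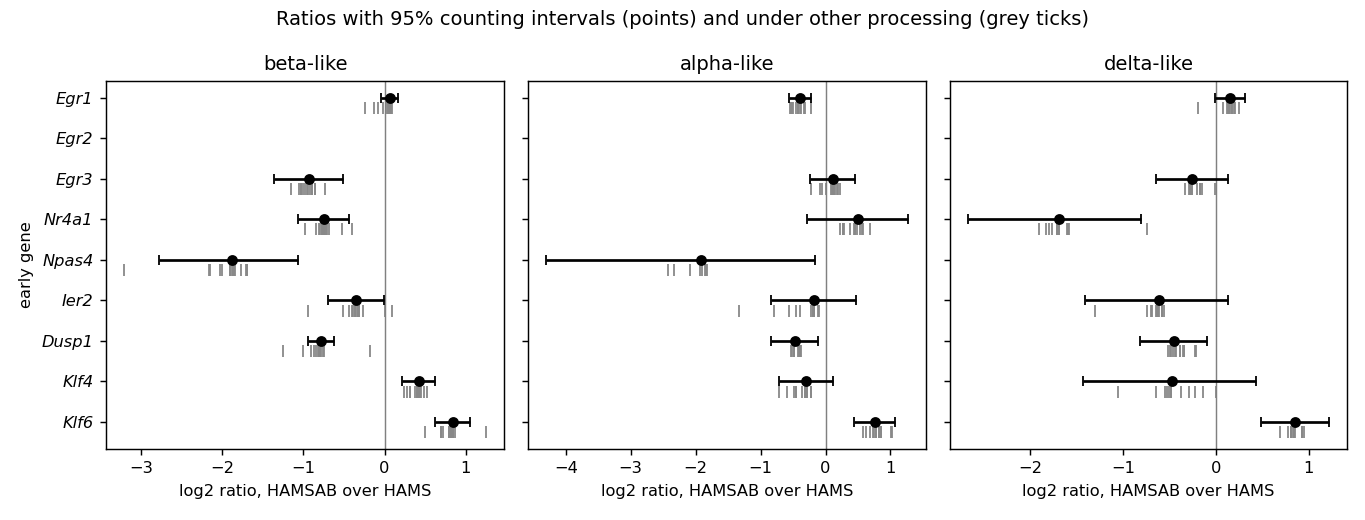
Log2 ratio of HAMSAB over HAMS (horizontal axis; each panel has its own range) for each gene with at least 20 UMIs in the 3 endocrine classes (beta-like, alpha-like, delta-like). Points with bars are the ratio and its 95% counting interval, and grey ticks below them are the same ratio under other processing choices. Klf6 lies right of 0 in all 3 classes (0.84, 0.75 and 0.85) and Dusp1 left of it (-0.78, -0.48 and -0.45).

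Among the related genes in beta-like cells, the AP-1 list (Fos and Jun family factors, the other main early response) had 0 of 7 measured genes of 9 at least 2-fold apart, and all 7 ratios were below 0. Its median was -0.26, beside 0.02 over all genes measured, of which 48.0% had a ratio below 0. Fos had 2201 CPM in HAMSAB against 4010 CPM in HAMS (-0.87, -0.95 to -0.78) and Fosl2 134 CPM against 181 CPM (-0.43, -0.79 to -0.08). Junb (-0.01, -0.20 to 0.17) and Atf3 (-0.06, -0.27 to 0.14) were at the other end of the list.

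Of 22 other early genes 15 were measured in beta-like cells, with 0 at least 2-fold higher, 1 lower, 12 ratios below 0 and a median of -0.22. The lower one was Gadd45b, a stress-induced growth arrest gene, at 29.9 CPM in HAMSAB against 74.7 CPM in HAMS (-1.32, -2.07 to -0.63), followed by its relative Gadd45g at 85.5 against 166 CPM (-0.96, -1.39 to -0.53). At the other end were Rgs2, a regulator of G protein signalling, at 315 CPM in HAMSAB against 215 CPM in HAMS (0.55, 0.28 to 0.82), and Gem, a small GTPase, at 433 against 357 CPM (0.28, 0.06 to 0.49).

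The Egr corepressors and upstream factors had 8 of 15 measured, none 2-fold apart, and a median of 0.16. They were sparse: Creb1, the CREB factor, gave 26 UMIs in HAMSAB and 30 in HAMS (0.37, -0.45 to 1.18), Mef2a 0.42 (-0.38 to 1.22), Mef2d -0.61 (-1.33 to 0.08) and the ERK kinase gene Mapk3 -0.51 (-1.28 to 0.21). All 4 intervals held 0. Of other MAP kinase phosphatases 4 of 7 were measured, with a median of 0.19: Dusp10 had 0.48 (0.14 to 0.83), Dusp4 0.74 (-0.09 to 1.58), Dusp5 -0.11 (-0.36 to 0.14) and Dusp8 -0.60 (-1.15 to -0.07).

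Other Klf genes had 6 of 10 measured and a median of 0.06. Klf13 was lower, at 540 CPM in HAMSAB against 904 CPM in HAMS (-0.74, -0.91 to -0.57), while Klf7 (0.39, 0.04 to 0.73) and Klf10 (0.41, -0.03 to 0.83) were at the upper end and Klf5 had -0.04. The heat shock list, chaperones that respond to stress, had 10 of 10 measured, 0 higher and 2 lower by 2-fold, and a median of -0.07. The 2 were Dnajb1, at 324 CPM in HAMSAB against 716 CPM in HAMS (-1.14, -1.36 to -0.93), and Hspa1a, at 67.8 against 137 CPM (-1.01, -1.50 to -0.54), with Hspd1 (0.13) and Hsp90ab1 (0.10) at the upper end.

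**Figure D3:**
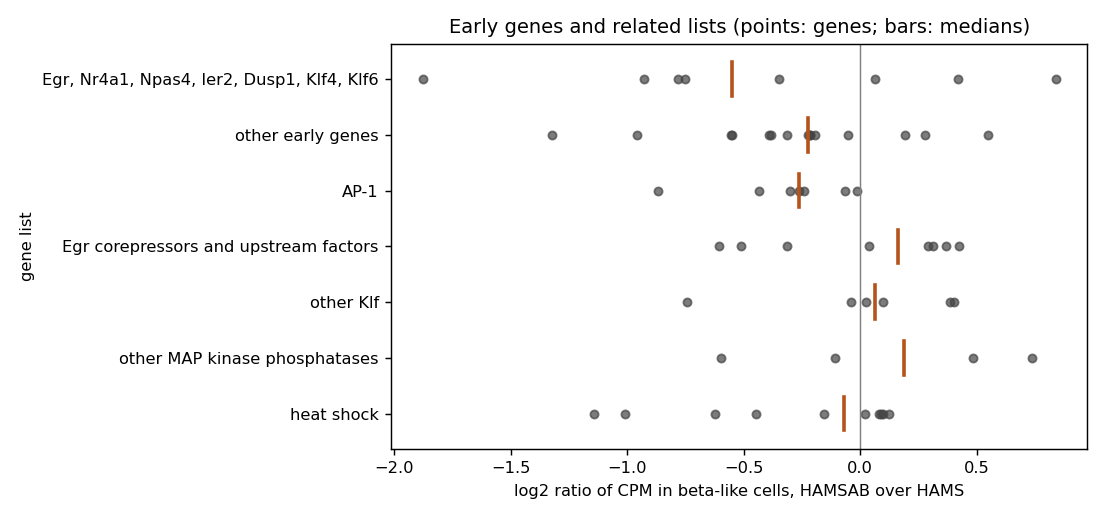
Log2 ratio of HAMSAB over HAMS in beta-like cells for the early genes described here (top row) and for 6 related gene lists; each point is a gene with at least 50 UMIs and each bar the median of its row. The AP-1 and other early gene rows have medians of -0.26 and -0.22, and the top row spreads from -1.88 (Npas4) to 0.84 (Klf6).

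Egr1 was at its highest level in ductal-like cells, the epithelium of the pancreatic ducts (185 HAMSAB and 75 HAMS cells), at 6727 CPM (1253 UMIs) in HAMSAB against 4258 CPM (345 UMIs) in HAMS, where the interval overlapped that of endothelial-like cells. The log2 ratio was 0.66 (0.49 to 0.84), and 1.43 when cells were assigned singly from their marker genes. A UMI was found in 91.9% of HAMSAB and 73.3% of HAMS ductal-like cells, and in 84.2% and 67.2% after thinning to 500 UMIs. Dusp1 was higher too, at 1229 CPM in HAMSAB against 913 CPM in HAMS (0.43, 0.04 to 0.83). Klf6 had 2110 CPM in HAMSAB and 1901 CPM in HAMS (0.15, -0.12 to 0.43), Klf4 408 and 407 CPM, Ier2 231 and 197 CPM, Egr3 225 and 148 CPM and Nr4a1 177 and 74.0 CPM. Of 6 genes measured, 0 were 2-fold higher and 0 were 2-fold lower, against 4.95% and 1.69% of genes in the class.

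Endothelial-like cells numbered 28 in HAMSAB and 57 in HAMS, and Col1a1 and Dcn, genes of fibroblasts, were among the leading genes of their cluster. Of 4 genes measured, 1 (Klf6) was 2-fold higher and 0 were 2-fold lower, against 3.73% and 13.4% of genes in the class. The Klf6 value, 43 UMIs in HAMSAB against 25 in HAMS (1.48, 0.74 to 2.25), rested on 1 HAMSAB cell with 28 of the 43 UMIs: without the cell with most Klf6 UMIs in each library the counts were 15 and 21 and the ratio 0.32 (-0.74 to 1.35). Beta markers in the class summed to 1795 CPM in HAMSAB (4 of 10 detected) against 25765 CPM in HAMS (8 of 10), gamma markers to 142 CPM against 9171 CPM (3 of 4 in each), and fibroblast markers to 18043 CPM (6 of 7) against 10015 CPM (4 of 7). Their part in the ratios was not tested. Klf4 was at its highest level in this class, at 1559 CPM in HAMSAB and 1048 CPM in HAMS (0.57, -0.15 to 1.30). Egr1 had 3354 CPM in HAMSAB and 3523 CPM in HAMS, and Dusp1 1700 and 1485 CPM.

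Macrophage-like cells (392 HAMSAB and 294 HAMS) were, with endothelial-like cells, the class with most Dusp1, at 1733 CPM in HAMSAB and 1667 CPM in HAMS (0.06, -0.14 to 0.25). Egr1 was lower in HAMSAB, at 413 CPM against 701 CPM in HAMS (-0.76, -1.12 to -0.41), with 15.1% of HAMSAB and 25.9% of HAMS cells positive. Egr3 was higher, at 488 CPM in HAMSAB against 355 CPM in HAMS (0.46, 0.05 to 0.87), and Klf6 at 1235 CPM against 1000 CPM (0.30, 0.06 to 0.55). Klf4, which has a role in myeloid differentiation, had 201 and 199 CPM. Of 5 genes measured, 0 were 2-fold higher and 0 were 2-fold lower, against 1.54% and 2.2% of genes in the class.

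Conventional dendritic cells (cDC-like, 181 HAMSAB and 126 HAMS) had 0 of 3 genes 2-fold higher and 0 lower, against 1.92% and 1.92% of genes in the class. Egr3 had 304 CPM (61 UMIs) in HAMSAB against 156 CPM (21 UMIs) in HAMS (0.96, 0.22 to 1.75). Egr1 was sparse, with 12 UMIs in HAMSAB and 18 in HAMS (-1.16, -2.35 to -0.03), and its ratio was -0.05 at the finer clustering. In the authors' deposited table for cDC, Egr3 is listed with a log2 fold change of 0.68, 38.1% of HAMSAB and 26.5% of HAMS cells and an adjusted p-value of 2.919e-06, and Dusp1 with 0.40, 26.4% and 20.5% and an adjusted p-value of 1. The cells behind that table may differ from the class here. Egr3 was found in 21.5% of HAMSAB and 11.1% of HAMS cDC-like cells, and in 45.8% and 31.9% of cells of cluster 2, described next. Plasmacytoid dendritic cells (pDC-like, 67 HAMSAB and 33 HAMS) held 30 and 15 UMIs of all 9 genes, too few for any ratio.

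Egr3 was at its highest level in cluster 2, a large group (978 HAMSAB and 715 HAMS cells) that stayed unnamed because 1 marker (Kit) of its best-scoring class, mast cells, was detected. It was led by Il1r2, Ifitm1, S100a4, Tbc1d4 and Pak1. Egr3 had 1498 CPM (1033 UMIs) in HAMSAB against 894 CPM (466 UMIs) in HAMS, a log2 ratio of 0.74 (0.59 to 0.91), and 45.8% of HAMSAB and 31.9% of HAMS cells were positive. Dusp1 had 686 against 484 CPM (0.50, 0.28 to 0.73; 0.03 in cells with at least 500 genes), Ier2 113 against 65.3 CPM (0.79, 0.20 to 1.42) and Klf4 284 against 180 CPM (0.66, 0.29 to 1.03). Egr1 went the other way, at 235 CPM in HAMSAB against 328 CPM in HAMS (-0.48, -0.80 to -0.16), and Klf6 was level at 644 and 645 CPM. Of 7 genes measured 0 were 2-fold higher and 0 were 2-fold lower, against 1.66% and 0.809% of genes in the cluster. The cDC markers summed to 1137 CPM in HAMSAB, with 10 of 10 detected, and 1046 CPM in HAMS, with 9 of 10 detected and Cd209a at 0. At the finer clustering the clusters named cDC held 132, 261 and 94 HAMSAB cells, against 181 here. The unnamed ones held 309 and 366, against 978 here, so the border between cDC-like cells and cluster 2 depends on the resolution.

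B-like cells (643 HAMSAB and 193 HAMS) held more of several of these genes in HAMSAB. Of 7 genes measured, 3 were at least 2-fold higher (Klf4, Klf6 and Ier2) and 0 were 2-fold lower, against 3.08% and 0.828% of genes in the class, and the median ratio was 0.68 against 0.05 over all genes measured. The number higher was 1 with a minimum of 100 UMIs or when cells were assigned singly from their marker genes, and 0 in cells with at least 500 genes. Egr2, which is known to restrain lymphocyte activation, gave 38 UMIs (58.5 CPM) in HAMSAB against 2 UMIs (9.09 CPM) in HAMS, a log2 ratio of 2.69 (0.73 to 5.78), which ran from 1.86 to 3.66 under other processing. Klf4, a factor of quiescent B cells, gave 50 UMIs (77.0 CPM) against 5 UMIs (22.7 CPM), a ratio of 1.76 (0.44 to 3.44). Klf6 had 185 CPM in HAMSAB against 86.3 CPM in HAMS (1.10, 0.39 to 1.88), 2.07 in cells thinned to 500 UMIs. Ier2 gave 44 UMIs against 7 (1.09, -0.07 to 2.49).

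Egr1, which follows B cell receptor signals, had 474 CPM in HAMSAB B-like cells against 295 CPM in HAMS ones (0.68, 0.29 to 1.09), with 26.3% and 16.6% of the cells positive. Egr3 had 641 against 504 CPM (0.34, 0.04 to 0.66). Nr4a1 (92.4 and 100 CPM) and Dusp1 (67.7 and 72.7 CPM) had wide intervals that held 0 (-0.84 to 0.66 and -0.96 to 0.82). Dusp1 was lower here than in any other class of the HAMSAB library, with an interval that overlapped that of pDC-like cells. The HAMSAB B-like cells were shallower (median 769 UMIs) than the HAMS ones (893). The 8 B cell markers, all detected, summed to 4339 CPM in HAMSAB and 4262 CPM in HAMS, and the 5 cycling markers to 1940 and 1595 CPM. The part of depth and of cycling cells in the ratios was not tested.

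T-like cells (705 HAMSAB and 313 HAMS) had 1 of 7 genes 2-fold higher, Egr3, and 0 lower, against 2.51% and 0.754% of genes in the class. All 7 ratios were above 0, beside 51.1% of all genes measured in the class. Egr3 gave 53 UMIs in HAMSAB against 14 in HAMS (1.06, 0.19 to 2.02), and its ratio was 0.27 when cells were assigned singly from their marker genes. Ier2 had 111 against 61.4 CPM (0.85, 0.19 to 1.56). At the finer clustering the T-like cells formed 2 clusters. The one with Cd4 and Il7r among its detected markers held 499 HAMSAB and 153 HAMS cells. The one with Cd8a among them held 208 HAMSAB and 159 HAMS cells. The part of this mixture in the T-like ratios was not tested. Plasma-like cells were few (61 HAMSAB and 21 HAMS). Egr1 gave 33 UMIs in HAMSAB against 1 in HAMS (3.21, 0.63 to 8.55), a ratio that was -0.50 when cells were assigned singly from their marker genes and 1.03 after clustering without early genes. Klf6 gave 36 UMIs against 2 (2.33, 0.38 to 5.43), and 0.47 by own markers.

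**Figure D4:**
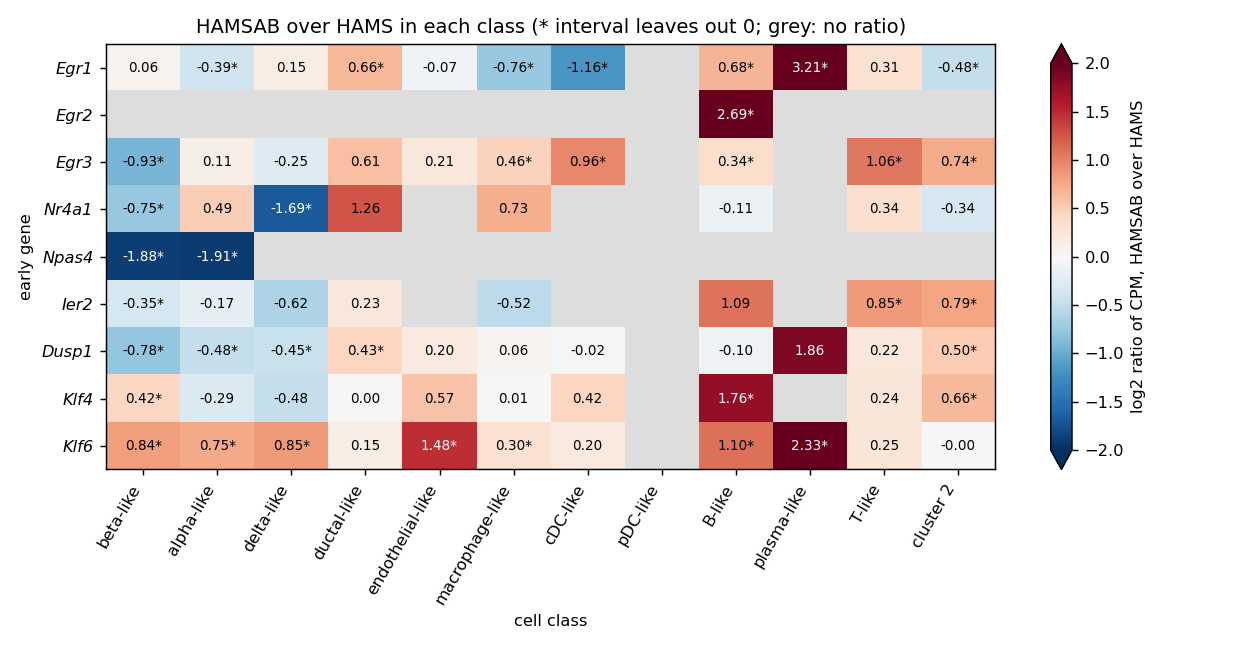
Log2 ratio of HAMSAB over HAMS for each gene (rows) in each cell class (columns); an asterisk marks a 95% counting interval that leaves out 0, and grey cells have under 20 UMIs or a library at 0. Egr1 is above 0 in ductal-like cells (0.66) and below it in macrophage-like cells (-0.76), and Egr3 is below 0 in beta-like cells (-0.93) and above it in cluster 2 (0.74).

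Each gene had its own order of levels over the 12 classes. Egr1 ran from ductal-like and endothelial-like cells over the 3 endocrine classes, where all values lay between 1697 and 2329 CPM, to at most 701 CPM in every other class. In HAMSAB the intervals of beta-like (1679 to 1872 CPM) and alpha-like cells (1544 to 1885 CPM) overlapped, and in HAMS those of alpha-like and delta-like cells did. Egr3 was highest in cluster 2 in both libraries, where its interval overlapped that of endothelial-like cells in HAMS. Its beta-like level (88.2 CPM in HAMSAB and 168 CPM in HAMS) lay below that of alpha-like cells (489 and 451 CPM) and delta-like cells (376 and 448 CPM), with no overlap of intervals.

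Npas4 was detected in beta-like and alpha-like cells of both libraries and in few other cells: 0 UMIs in HAMSAB and 5 in HAMS delta-like cells, and at most 2 UMIs in any other class. The intervals of its beta-like and alpha-like levels overlapped in both libraries. Nr4a1 was lowest in delta-like (53.7 CPM) and cDC-like cells (34.9 CPM) in HAMSAB. In HAMS its lowest level beside plasma-like cells (0 UMIs in 21 cells, which allows up to 146 CPM) was in cDC-like cells (37.2 CPM), and delta-like cells followed endothelial-like and beta-like cells at 173 CPM.

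Ier2 had all its values between 22.3 and 233 CPM, and the intervals of every pair of neighbours overlapped. Dusp1 was highest in macrophage-like and endothelial-like cells, whose intervals overlapped, and beta-like cells came next in HAMS (1037 CPM), while in HAMSAB they (604 CPM) came after ductal-like cells and cluster 2. Klf6 was highest in ductal-like cells in both libraries, with an interval that overlapped that of endothelial-like cells in HAMSAB. In HAMS the 3 endocrine classes lay between 302 and 408 CPM, and in HAMSAB between 541 and 688 CPM, where their intervals overlapped that of cluster 2 (644 CPM).

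**Figure D5:**
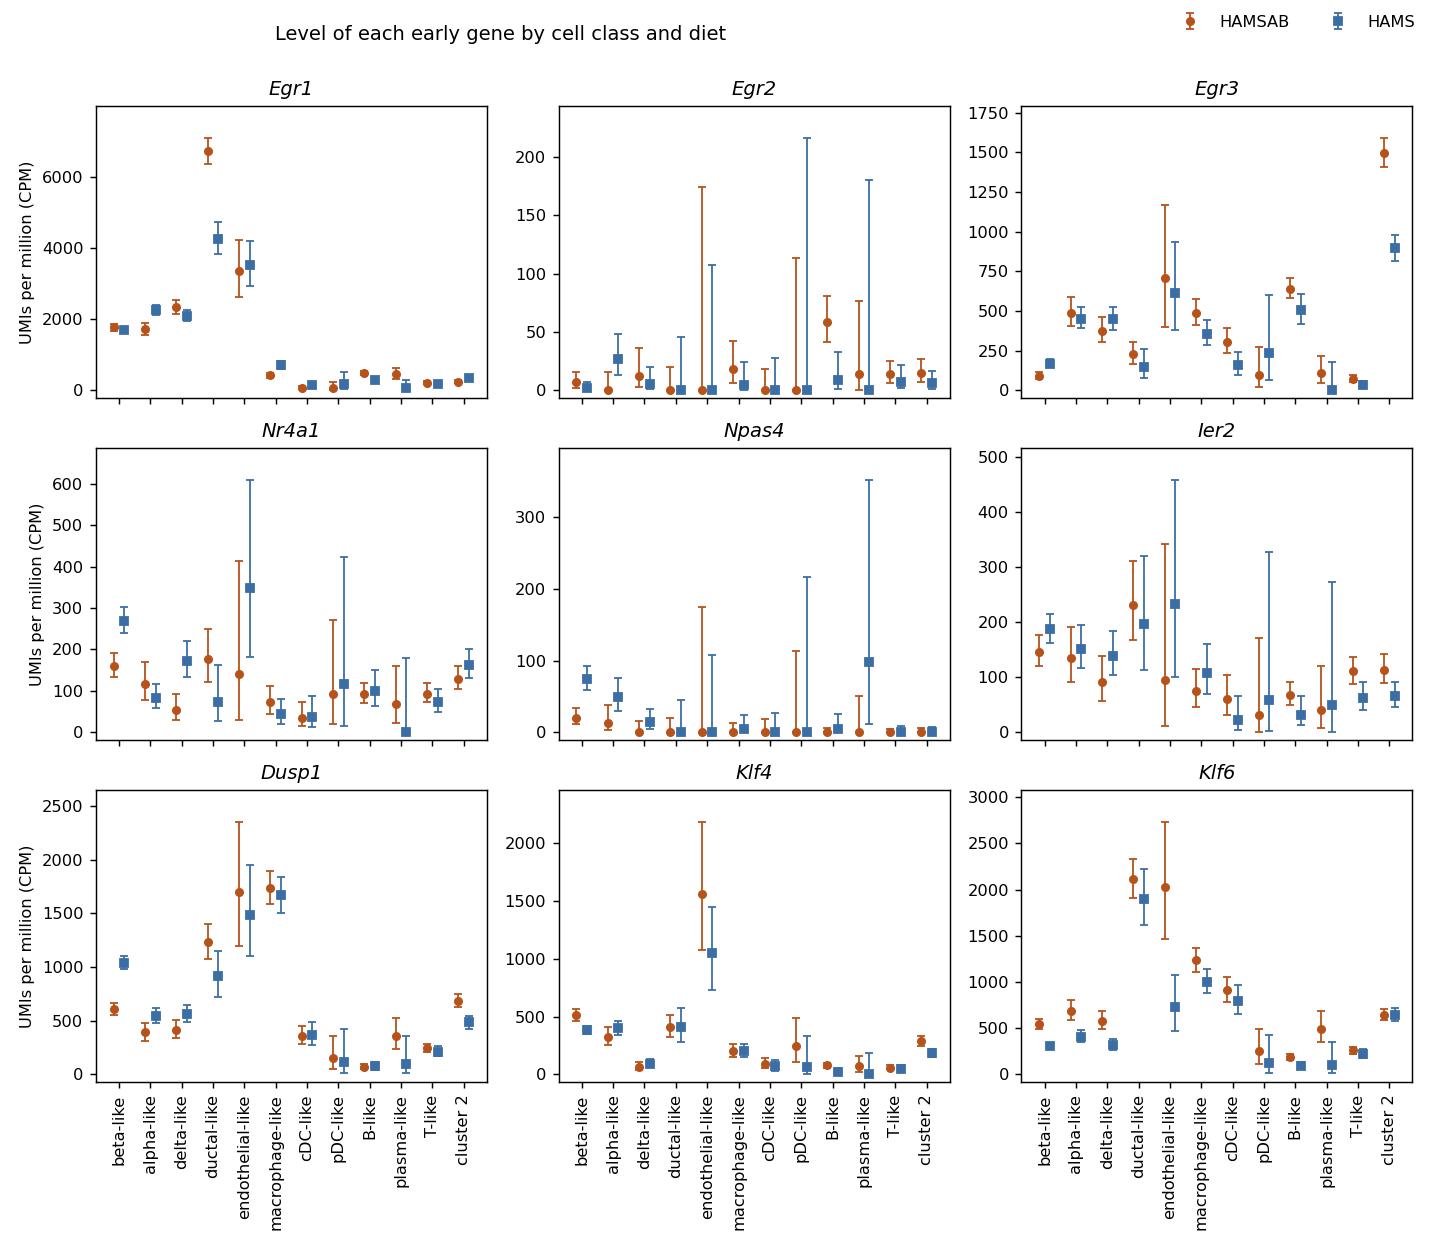
Level of each gene in CPM (vertical axes, each panel with its own range) in the 12 cell classes; circles are HAMSAB, squares HAMS, and bars 95% Poisson intervals that cover counting error only. Egr1 peaks in ductal-like cells (6727 CPM in HAMSAB and 4258 CPM in HAMS), Egr3 in cluster 2 (1498 and 894 CPM), and Npas4 is near 0 outside the endocrine classes, apart from plasma-like HAMS cells (97.6 CPM from 2 UMIs) and wide bars in small classes.

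Over the 24 points formed by 12 classes and 2 libraries, the genes most like each other were Dusp1 and Klf6 (Pearson r of log2(CPM + 10) 0.84) and Egr1 and Ier2 (0.80). These values describe cell classes that share a library and differ in depth, and carry no p-value. Among 4865 other genes, the most alike were Gbp6 (0.94), Ctnnb1 (0.92) and Tjp1 (0.92) for Egr1, and Plekha1 (0.75), Fcho2 (0.73) and Nfat5 (0.73) for Egr3. For Nr4a1 they were Scd2 (0.84), Tnrc18 (0.78) and Dnaja1 (0.77), and for Ier2 they were 2900026A02Rik (0.83), Errfi1 (0.83) and Gbp6 (0.80). Dusp1 was most like Ifih1 (0.87), Furin (0.86) and the AP-1 gene Junb (0.85). Klf4 was most like its relative Klf10 (0.85), Neat1 (0.81) and Vamp3 (0.80), and Klf6 like Cd9 (0.89), Fnbp1l (0.87) and Jag1 (0.87). Egr2 and Npas4, with under 200 UMIs in all, were left out.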

How the data were processed

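Islet cells of 2 droplet libraries were measured, 1 per diet. The genes and the related gene lists were chosen with earlier results of these data known. Per the file headers Cell Ranger 5.0.0 wrote the matrices, and each deposited value is a raw UMI count per gene and barcode. Seurat and the builds GRCm38 and mm10 appear in the submitters' processing notes, without settings. The authors' deposited tables hold a log2 fold change, the fraction of cells with the gene in each diet (printed as a percent) and a p-value per gene, and their rows name the diet; no source used here gives their test.

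The HAMSAB library held 4254040 UMIs in 5022 barcodes and the HAMS library 3599756 UMIs in 4352 barcodes. The cell filter (minimum 200 genes, maximum 20% mitochondrial UMIs) removed 391 and 3 HAMSAB and 165 and 2 HAMS barcodes. The kept cells of the libraries shared 4 barcodes. Genes in at least 3 cells were scaled to 10000 UMIs per cell on a log scale. Leiden clustering at resolution 1 (scanpy 1.11.5, igraph 0.11.9) used a graph of 15 neighbours on 30 principal components of 2000 variable genes. Clusters were named from fixed markers if at least 3 were detected. Names are rebuilt and may differ from the study's. No doublet caller was run, so doublets remain; an alternative leaves out the deepest 5% of cells of each class and library.

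UMIs were summed per class and library. Ratios, given from 20 UMIs in both libraries together, have exact conditional binomial intervals, CPM exact Poisson intervals and shares exact Clopper-Pearson intervals; where a library had 0, the upper limit is 3 counts. UMIs from free RNA were not removed. The ratio intervals were checked on simulated Poisson counts, drawn gene by gene from the beta-like means. No cells were simulated, so the check cannot show how UMIs clumped within cells affect the intervals. Named list genes are the up to 2 highest and 2 lowest of each list in beta-like cells with at least 50 UMIs, and like genes the 3 with the highest correlation among genes with at least 200 UMIs. The same list genes in the other classes were computed too and are not printed.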

Additional observations from a re-analysis of the deposited data

Results flagged for a closer look

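Egr1 was higher in HAMSAB ductal-like cells and lower in HAMSAB macrophage-like cells, and the log2 ratios of these classes differed by 1.42. Egr3, Ier2 and Dusp1 were each higher in HAMSAB in cluster 2 and lower in HAMSAB in beta-like cells, with differences in log2 ratio of 1.67 for Egr3, 1.14 for Ier2 and 1.28 for Dusp1. These are the 4 genes with intervals on both sides of 0 in different classes, and for each the pair of classes given is the one whose intervals lay furthest from 0, among classes with at least 50 UMIs of the gene; other pairs can have a larger difference. The difference itself was not tested, with 1 library per diet. The beta-like Ier2 ratio was 0.09 in cells thinned to 500 UMIs and 0.01 in cells with at least 500 genes, and the cluster 2 Dusp1 ratio was 0.03 in cells with at least 500 genes.

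The 9 acinar-like cells, all of the HAMSAB library, entered no comparison and held 11 UMIs of Egr1 and 8 of Klf6. Barcodes removed by the cell filter held 413 UMIs of the 9 genes in HAMSAB and 130 in HAMS.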

How the results depend on the processing

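Of 72 ratios of a gene in a class, 36 had an interval that left out 0, and 34 of these kept their sign under each alternative run for them. The share of all genes with such an interval was not computed. The exceptions were Ier2 in beta-like cells (0.09 thinned to 500 UMIs and 0.01 with at least 500 genes per cell) and Egr1 in plasma-like cells (-0.50 with cells assigned singly from their marker genes). No scaling moved the median gene by over 0.1 on the log2 scale. The counts of genes at least 2-fold apart are small and moved as follows; the cause was not tested. In beta-like cells the number lower was 0 with a minimum of 100 UMIs and in cluster 4 alone, 2 with each cell weighted equally, without the deepest 5% of cells and without the cell with most UMIs of the gene in each library, and 3 in cluster 9 alone; the number higher was 1 in cluster 4 alone. In alpha-like cells 1 was higher after thinning or with at least 500 genes, and 1 lower with a minimum of 20 UMIs. In delta-like cells 0 were lower with a minimum of 100 UMIs, after thinning or with at least 500 genes, and 2 by own markers. In ductal-like cells 1 was higher with a minimum of 20 UMIs and 2 by own markers. In endothelial-like cells 0 were higher with a minimum of 100 UMIs, after thinning, without the deepest 5% of cells, without the top cell and by own markers, where 1 was lower. In macrophage-like cells 1 was higher after thinning and 1 lower with at least 500 genes. In cDC-like cells 1 was higher at Leiden resolutions 0.5 and 2, with equal weights and without the top cell, and 1 lower with a minimum of 20 UMIs. In B-like cells 1 was higher with a minimum of 100 UMIs or by own markers, and 0 with at least 500 genes. In T-like cells 0 were higher with a minimum of 100 UMIs, equal weights, thinning, at least 500 genes, own markers and without the deepest 5% of cells. In cluster 2, 1 was higher after thinning. Leaving out the top cell was chosen after seeing the data. Egr3 in macrophage-like cells had 1.09 after thinning, against 0.46 in all cells. Of 144 shares of cells with a UMI, 98 lay outside their interval after thinning, so shares depend on depth. Drawing fewer UMIs from a cell can only lower its detection, so this count does not compare the diets at equal depth. No paired analysis was possible because each diet has 1 library.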
